A study of Mus musculus with 22 samples.

Results

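The genes described here were 6 regulators of the primitive endoderm, the transcription factors Gata6, Gata4, Sox17, Sox7 and Foxq1 and the receptor Pdgfra. They were chosen by gene symbol, and each symbol matched 1 of the 55335 genes in the FPKM table. FPKM are counts of sequenced fragments divided by the length of the transcript and by the size of the library, so that levels can be set side by side between genes.

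RNA-seq was performed on mouse embryos of the strain B6D2F1 as 22 libraries, each made from a pool of 15 embryos. H2A.Z is a variant of histone H2A, and for its knockdown (KD) zygotes had received about 10 pl of a mix of siRNAs at 20 µM. Embryos were 2-cell embryos, morulae or blastocysts, about 44, 78 and 94 h after hCG injection. Each stage had 4 control libraries, and KD had 3 libraries at the 2-cell stage, 3 of morulae and 4 of blastocysts. The treatment of the control embryos is not stated for these libraries, so that an effect of injection alone and an effect of the KD cannot be told apart. The labels do not say whether replicate libraries came from separate collections of embryos, so p-values measure the spread between libraries. Whole embryos were pooled, and fewer cells of a type and less RNA per cell cannot be told apart.

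The primitive endoderm is the layer of the inner cell mass that faces the blastocyst cavity and later lines the yolk sac. FGF signalling through ERK favours it over the epiblast, and Gata6, which opposes the epiblast factor Nanog, is needed for its first step. Pdgfra marks the cells early, and Sox17, Gata4 and Sox7 are known to follow as the layer matures.

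H2afz, the gene of H2A.Z, was lower in KD embryos at each stage, with no overlap between libraries. It was at 905 to 1244 FPKM in the 4 control and 112 to 415 FPKM in the 3 KD libraries of 2-cell embryos, at 1158 to 1511 and 25.7 to 30.3 FPKM in morulae, and at 1945 to 2656 and 53.2 to 67.2 FPKM in blastocysts. The log2 fold change was -2.53, -5.41 and -5.19 at the 3 stages, with adjusted p of 0.543, 9.71e-08 and 3.63e-08 from limma, so that the 2-cell difference did not pass the test.

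At the blastocyst stage, the data go against the name of the list for Gata4 and Foxq1, and Sox7 was low. In control blastocysts, Gata6 reached 1 FPKM in all 4 libraries, and 3 of the 6 genes, Gata6, Pdgfra and Sox17, reached it in any library. Gata4, Sox7 and Foxq1 stayed below 0.2 FPKM in every control blastocyst library, and Gata4 was instead a transcript of 2-cell embryos. Genes were tested across the whole table with limma, on log2(FPKM + 1), when they had at least 1 FPKM in at least 3 libraries of the comparison, and they were called at an adjusted p under 0.05. This filter left 1 of the 6 genes in each comparison of control and KD embryos, Gata4 at the 2-cell stage and Gata6 in morulae and blastocysts, and the other 5 were given an exact permutation test, two-sided and unadjusted, except for Sox7 in morulae, where all values were 0.

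**Figure D1:**
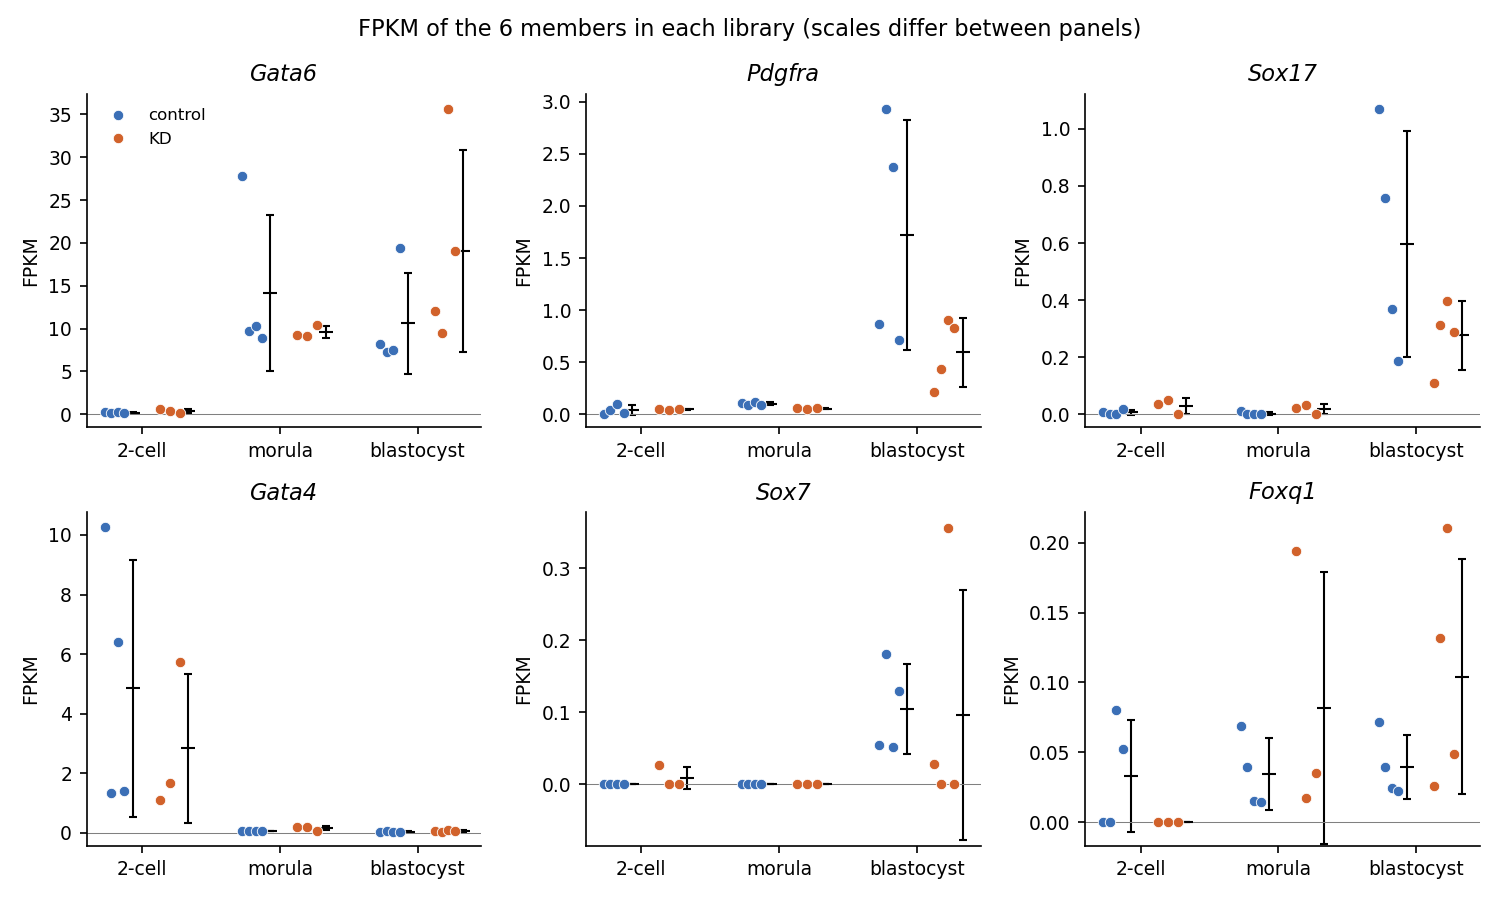
FPKM of the 6 genes (vertical axis, a scale of its own in each panel) in each library, by stage (horizontal axis) and in control (blue) and KD (orange) embryos, with the mean and SD of each group in black. Gata6 was high from the morula on, Pdgfra and Sox17 were highest in blastocysts, Gata4 was high only in 2-cell embryos, and Sox7 and Foxq1 were low throughout.

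Gata6 (ENSMUSG00000005836.10; chromosome 18, 11052064 to 11085635, plus strand, GRCm38) encodes a zinc finger factor that stands at the start of the primitive endoderm programme. In control 2-cell embryos, it was at 0.238, 0.146, 0.268 and 0.133 FPKM in replicates 1, 2, 4 and 5. In control morulae, it was at 27.8, 9.73, 10.3 and 8.87 FPKM in replicates 1, 2, 7 and 8, and in control blastocysts at 8.25, 7.32, 7.46 and 19.4 FPKM in replicates 1, 4, 5 and 6. All morula libraries lay far above all 2-cell libraries, while morulae and blastocysts overlapped, and 1 library stood apart at each of these later stages. From the 2-cell stage to the morula, Gata6 rose by 3.47 on the log2(FPKM + 1) scale (standard error 0.25, adjusted p = 9.94e-08 from limma). From the morula to the blastocyst, the difference was -0.42 (standard error 0.34, adjusted p = 0.307 from limma), which is within the spread between libraries, and it ran from -0.71 without blastocyst replicate 6 to -0.12 without morula replicate 1.

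In KD embryos, Gata6 was at 0.588, 0.382 and 0.203 FPKM in 2-cell replicates 1, 2 and 4, and at 9.26, 9.19 and 10.4 FPKM in morula replicates 1, 2 and 6. In KD blastocysts, it was at 12, 9.45, 35.7 and 19.0 FPKM in replicates 1, 4, 5 and 6. KD and control libraries overlapped at every stage, with the highest value of all 22 libraries in KD blastocyst replicate 5. At the 2-cell stage, the difference between KD and control was 0.22 (exact permutation test, p = 0.114), and 0.12 without KD replicate 1. In morulae, the mean was 14.2 ± 9.10 FPKM (SD, n = 4) in control and 9.62 ± 0.682 FPKM (SD, n = 3) in KD embryos, and the log2 fold change was -0.25 (adjusted p = 0.597 from limma, standard error 0.29). The control mean rested on replicate 1: without it, the log2 fold change was 0.053 (adjusted p = 0.825 from limma).

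In blastocysts, mean Gata6 was 10.6 ± 5.87 FPKM (SD, n = 4) in control and 19.0 ± 11.8 FPKM (SD, n = 4) in KD embryos, 1.80 times the control level. The log2 fold change was 0.73 (standard error 0.35) and did not pass the test (adjusted p = 0.125 from limma). This result also turned on 1 library, since without control replicate 6, at 19.4 FPKM, it was 1.02 with an adjusted p of 0.0318, and without KD replicate 5 it was 0.44; over all alternatives tried, the adjusted p ranged from 0.0318 to 0.341. The difference between the KD effect in blastocysts and that in morulae was 0.94 (standard error 0.51, adjusted p = 0.249), so the effects of the 2 stages were not shown to differ. Between KD morulae and KD blastocysts, the difference was 0.56 (standard error 0.31, adjusted p = 0.178 from limma), and 0.26 without KD blastocyst replicate 5.

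Gata6 shares its first 504 bases with 1010001N08Rik, a noncoding gene on the opposite strand (chromosome 18, 10987944 to 11052567), and 93 exon bases belong to both, which is 1.43% of the exon bases of Gata6. The libraries do not mark the strand, so reads from this stretch cannot be assigned to either gene. 1010001N08Rik was at 0.061 ± 0.014 FPKM (SD, n = 4) in control 2-cell embryos, 10.5 ± 5.69 FPKM (SD, n = 4) in control morulae and 8.84 ± 1.40 FPKM (SD, n = 4) in control blastocysts; it was thus near 0 in 2-cell embryos and, like Gata6, present from the morula on. The libraries did not rank alike for the 2 genes. KD blastocyst replicate 5, highest for Gata6, had the lowest value of 1010001N08Rik among KD blastocysts (7.63 FPKM, against 12.1 to 20.5 FPKM in the other 3).

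**Figure D2:**
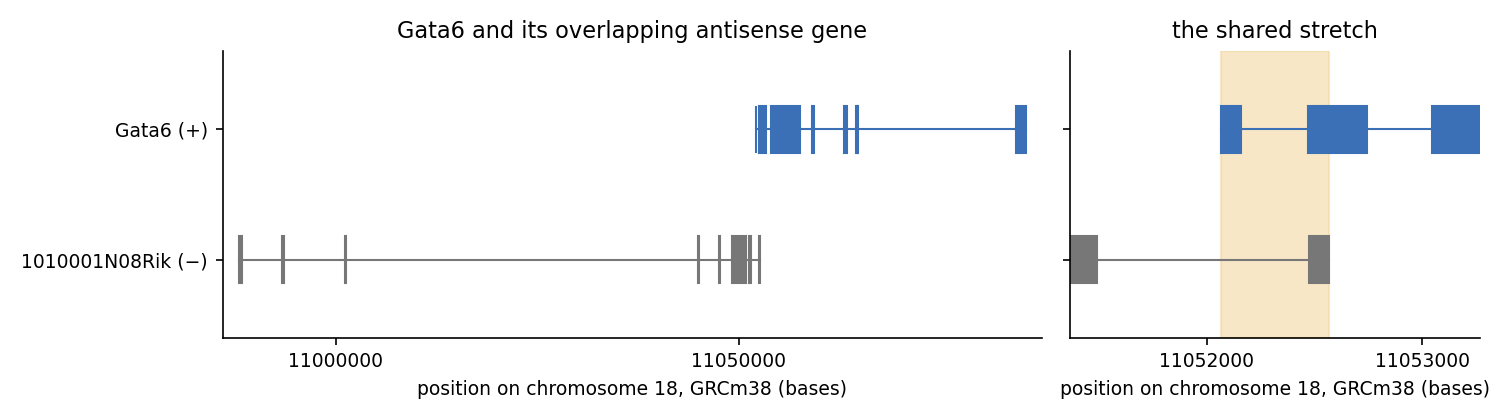
Map of Gata6 and the antisense gene 1010001N08Rik on chromosome 18 (horizontal axis, bases on GRCm38), with exons of all annotated transcripts as boxes and the span of each gene as a line. The right panel enlarges the start of Gata6, where the shaded stretch of 504 bases belongs to both genes and the exons overlap over 93 bases.

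Pdgfra (ENSMUSG00000029231.15; chromosome 5, 75152292 to 75198215, plus strand) encodes the alpha receptor for platelet-derived growth factor, a tyrosine kinase at the surface of primitive endoderm cells. In control blastocysts, it was at 0.863, 2.93, 2.37 and 0.714 FPKM in replicates 1, 4, 5 and 6, and in KD blastocysts at 0.213, 0.431, 0.903 and 0.830 FPKM in replicates 1, 4, 5 and 6. The control libraries fell into a higher and a lower pair, and the lower pair lay within the range of the KD libraries. The mean was 1.72 ± 1.1 FPKM (SD, n = 4) in control and 0.595 ± 0.328 FPKM (SD, n = 4) in KD blastocysts, a difference of -0.70 on the log2(FPKM + 1) scale. The exact permutation test gave p = 0.0857. Without control replicate 6, the difference was -0.89 with p = 0.0286 in the exact permutation test, the smallest p that 4 against 3 libraries allow; without control replicate 4, it was -0.50 with p = 0.143.

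In control morulae, Pdgfra was at 0.108, 0.0909, 0.117 and 0.0922 FPKM in replicates 1, 2, 7 and 8, and in KD morulae at 0.0587, 0.0497 and 0.0565 FPKM in replicates 1, 2 and 6. Every KD morula lay below every control morula, with means of 0.102 ± 0.0125 FPKM (SD, n = 4) in control and 0.0550 ± 0.00468 FPKM (SD, n = 3) in KD embryos (difference -0.053, exact permutation test, p = 0.0286, the smallest that 4 against 3 libraries allow). Both groups were near 0, at 0.117 FPKM or less in every morula library. With libraries grouped by the range of their replicate numbers, p was 0.0556 (exact permutation within ranges), the smallest that this grouping allows. Control and KD morulae both lie below all control blastocyst libraries. From the morula to the blastocyst, the control mean rose 16.9-fold with no overlap between stages (difference 1.16, exact permutation test, p = 0.0286, the smallest that 4 against 4 libraries allow). In KD embryos it was 10.8 times as high in blastocysts as in morulae, again with no overlap (difference 0.52, exact permutation test, p = 0.0571). Pdgfra was below the filter of the fit over both stages, and when this was fitted with no filter, 0 of the 6 genes were called for a step that differed between control and KD embryos. Of all 37157 genes in that fit, 398 were called with a higher and 590 with a lower KD effect in blastocysts. At the 2-cell stage, Pdgfra was at 0.00246 to 0.102 FPKM in control and 0.0381 to 0.0533 FPKM in KD libraries. Gm42802 and Gm42803 on the opposite strand and Mir7025 on the same strand share 4.55%, 1.66% and 0.299% of its exon bases, and reads from these stretches cannot be assigned.

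Sox17 (ENSMUSG00000025902.13; chromosome 1, 4490931 to 4497354, minus strand) encodes an HMG box factor that keeps the primitive endoderm in place once it has formed. In control blastocysts, it was at 1.07, 0.757, 0.370 and 0.188 FPKM in replicates 1, 4, 5 and 6, and in KD blastocysts at 0.108, 0.314, 0.395 and 0.289 FPKM in replicates 1, 4, 5 and 6. The highest 2 values were both from control libraries, but the lowest control library lay below 3 of the 4 KD libraries. The mean was 0.596 ± 0.395 FPKM (SD, n = 4) in control and 0.277 ± 0.121 FPKM (SD, n = 4) in KD blastocysts (difference -0.30, exact permutation test, p = 0.229), and the difference was -0.15 without control replicate 1. Sox17 came on only in blastocysts. At the 2-cell stage and in morulae, no library exceeded 0.0513 FPKM, and all control blastocysts lay above all control morulae (exact permutation test, p = 0.0286, the smallest that 4 against 4 libraries allow). The same held for KD blastocysts against KD morulae (exact permutation test, p = 0.0571). Gm37587 on the opposite strand shares 804 exon bases with Sox17, 16.8% of the total, and reads from them cannot be assigned.

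Control blastocyst replicate 6 was highest among the control blastocysts for Gata6 and lowest for Pdgfra and Sox17. In KD blastocysts, replicate 5 was highest for all 3 genes.

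Gata4 (ENSMUSG00000021944.15; chromosome 14, 63198922 to 63271692, minus strand) encodes a second zinc finger factor of the GATA family, which in the embryo follows Gata6. In control 2-cell embryos, it was at 10.3, 1.33, 6.41 and 1.42 FPKM in replicates 1, 2, 4 and 5, and in KD 2-cell embryos at 1.12, 1.66 and 5.72 FPKM in replicates 1, 2 and 4. Each group held libraries near 1.5 FPKM and libraries above 5 FPKM, and the groups overlapped. The mean was 4.85 ± 4.31 FPKM (SD, n = 4) in control and 2.83 ± 2.52 FPKM (SD, n = 3) in KD embryos, and the log2 fold change was -0.42 (adjusted p = 0.913 from limma, standard error 0.58); without control replicate 1 it was 0.020 (adjusted p = 0.992). From the 2-cell stage to the morula in control embryos, Gata4 fell by 2.11 in log2(FPKM + 1) (adjusted p = 0.000618 from limma, standard error 0.43), to 0.0589 ± 0.00935 FPKM (SD, n = 4).

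After the 2-cell stage, Gata4 was near 0 and did not return in blastocysts. In control morulae, it was at 0.0593, 0.0716, 0.0552 and 0.0496 FPKM in replicates 1, 2, 7 and 8, and in KD morulae at 0.196, 0.182 and 0.0783 FPKM in replicates 1, 2 and 6. Every KD morula lay above every control morula, 2.58 times the control mean (exact permutation test, p = 0.0286, the smallest that 4 against 3 libraries allow), with the lowest KD library close to the highest control library. Gata4 had p = 0.0556 (exact permutation within ranges) when libraries were grouped by the range of their replicate numbers, the smallest p that this grouping allows. In blastocysts, it was at 0.0306 to 0.0680 FPKM in control and 0.0384 to 0.105 FPKM in KD embryos (exact permutation test, p = 0.171).

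Sox7 (ENSMUSG00000063060.6; chromosome 14, 63943673 to 63950732, plus strand) encodes an HMG box factor of the same subgroup as Sox17, and is a late marker of the layer. It was listed at 0 in all 7 morula libraries and in all 4 control 2-cell libraries. In control blastocysts, it was at 0.0542, 0.181, 0.0520 and 0.129 FPKM in replicates 1, 4, 5 and 6, and in KD blastocysts at 0.0284, 0, 0.357 and 0 FPKM in replicates 1, 4, 5 and 6. It was above 0 in every control blastocyst library and at 0 in 2 of the 4 KD blastocyst libraries, while the highest value of all came from KD replicate 5 (exact permutation test of KD against control, p = 0.771).

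Foxq1 (ENSMUSG00000038415.10; chromosome 13, 31556134 to 31560976, plus strand) encodes a forkhead factor and consists of a single exon. Its highest value in any library was 0.211 FPKM, in KD blastocyst replicate 5, and KD and control libraries overlapped at each stage, with p of 0.429 in 2-cell embryos and morulae and 0.200 in blastocysts (exact permutation tests). A530084C06Rik, annotated on the opposite strand, covers 3200 of its bases, which is 66.1% of its exon bases, and was at 0.0618 FPKM or less in every library; reads from this stretch cannot be assigned.

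How few reads stand behind such values can be read from the data in part. Among 11646 single-exon genes of at least 400 bases, low FPKM multiplied by length lay near whole multiples of 1 unit, the step, more often than an even spread would give. The size of the step differs by library and was worth 0.0349 to 0.0674 FPKM for a gene of 1000 bases. Of these low values, 17.2% to 29.1% lay within 5% of a step of a whole number of steps, where an even spread would give 10%. Foxq1 was at 0 in 5 of the 22 libraries and otherwise at 1.95 to 20.4 steps, of which some lay within 5% of a step of a whole number (2.00, 1.98) and others did not (2.65, 4.07, 4.76, 12.5). The step is a relative measure, since the number of reads was not among the values used.

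Read against the whole table, the calls among the 6 genes were few, and most of the genes were not tested in most comparisons. From the control 2-cell embryo to the control morula, 2 genes were tested, of which Gata6 rose and Gata4 fell, where 43% of all 13655 tested genes rose and 40.3% fell. Both passed the filter through 1 stage only, as 4041 genes did, of which 99.5% were called, so that the call itself adds little to the levels. From the control morula to the control blastocyst, Gata6 alone was tested and was not called, where 27.6% of all tested genes rose and 28.8% fell. The groups did not overlap for 3 of the 5 genes below the filter, Pdgfra, Sox17 and Sox7, which were higher in blastocysts, where this held for 12.1% of all genes below the filter that were above 0 in at least 3 libraries. From the KD morula to the KD blastocyst, Gata6 was again not called (19.2% of all tested genes rose and 18.2% fell), and the groups did not overlap for Pdgfra and Sox17, higher in blastocysts, against 12.9% of all genes below the filter.

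Between KD and control embryos, none of the 6 genes was called at any stage. At the 2-cell stage, 0% of 12160 tested genes were called by limma, and 701 had an unadjusted p under 0.05. In morulae, 4.23% of all tested genes were higher and 9.04% lower in KD embryos, and of the called genes 31.9% were higher, or 15.3% with FPKM as deposited and 11.8% with FPKM rescaled to an equal sum in each library, which moves the median of all tested genes to -0.14. Among genes below the filter in morulae, 5.19% were higher and 7.52% lower with no overlap, and Gata4 and Pdgfra were 1 of each. In blastocysts, 16.7% of all tested genes were higher and 19.8% lower, and 7.63% and 5.91% of the genes below the filter were higher and lower with no overlap, with none of the 5 genes below the filter among them. The KD effect differed between blastocysts and morulae for 11.7% of 12727 tested genes, and Gata6 was not one of them.

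The order of the 6 genes by mean FPKM changed with the stage. In control 2-cell embryos, Gata4 came first, followed by Gata6, and their ranges did not overlap; the other 4 genes were at or below 0.102 FPKM in every library. In control morulae, Gata6 stood first, and Pdgfra came next with a range that did not reach that of Gata4. In control blastocysts, the order was Gata6, Pdgfra, Sox17, Sox7, Gata4 and Foxq1. Of these neighbours, Gata6 and Pdgfra did not overlap, nor did Sox17 and Sox7, while Pdgfra and Sox17, Sox7 and Gata4, and Gata4 and Foxq1 overlapped. In KD blastocysts, Gata6, Pdgfra and Sox17 kept the first places, and only Gata6 and Pdgfra had ranges that did not overlap.

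The genes whose pattern over the 22 libraries was most like each of the 6 were found by Pearson's r of log2(FPKM + 1) among the 15697 genes with at least 1 FPKM in at least 3 libraries. For Gata6, these were Stx4a (r = 0.979), Gga2 (r = 0.977) and Epas1 (r = 0.976). For Pdgfra, they were Bmp4 (r = 0.968), Sh3bp5 (r = 0.946) and Unc93a2 (r = 0.943), and for Sox17 they were Mir351 (r = 0.937), Chil1 (r = 0.931) and Gm16179 (r = 0.923). For Gata4, they were Mir5627 (r = 0.970), Nhsl1 (r = 0.959) and Gm7903 (r = 0.957). The libraries of a stage share that stage, so these values mostly describe at which stage a gene is high. For Sox7 and Foxq1, which were near 0, the highest r were 0.803 and 0.765.

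The 6 genes lie on 5 chromosomes. Gata4 and Sox7 are both on chromosome 14, with 671980 bases between them, and the former was a 2-cell transcript while the latter was found in blastocysts. Their longest coding transcripts ran from 3234 bases (Gata6) to 6834 bases (Pdgfra) and had a GC content of 48.1% (Pdgfra) to 57.4% (Gata4), above the median of 49.1% over 21901 protein-coding genes for all but Pdgfra.

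Of the 6 genes, 1 had an entry in the table of promoters from RefSeq, Pdgfra; Gata6, Gata4, Sox17, Sox7 and Foxq1 had none. Its promoter is shown because Pdgfra rose most of the 6 genes from the control morula to the control blastocyst in log2(FPKM + 1), a scale on which genes at or near 0 in morulae, such as Sox17 and Sox7, show smaller steps, and because the other genes include GATA and SOX factors, which bind short sequences built around GATA and ACAAT. The window, chr5:75152001-75152300 on the plus strand of GRCm38.p6, runs from upstream of the start of the gene in RefSeq to 50 bases past it, and CG dinucleotides are in capitals.
Pdgfra: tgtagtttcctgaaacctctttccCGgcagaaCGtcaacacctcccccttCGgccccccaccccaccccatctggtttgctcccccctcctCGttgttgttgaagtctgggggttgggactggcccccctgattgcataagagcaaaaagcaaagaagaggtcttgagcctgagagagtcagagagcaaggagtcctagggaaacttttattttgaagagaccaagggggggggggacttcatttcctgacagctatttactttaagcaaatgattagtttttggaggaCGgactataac
It holds 5 CG dinucleotides, where the median of 32851 promoters of the same length was 7, and 43.6% of them had no more than 5. Neither GATA nor ACAAT was found on either strand, and these letters occurred on at least 1 strand of 57.9% and 31.0% of all promoters, respectively. The absence says only that these letters are not in this window.

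Downstream genes of the layer give the context for the 6 regulators. Of 21 markers of primitive endoderm and its derivatives, 8 reached 1 FPKM in every control blastocyst library, led by Dab2, an adaptor of endocytosis, at 128 ± 29.5 FPKM in control and 143 ± 12.2 FPKM in KD blastocysts (SD, n = 4 each; adjusted p = 0.390 from limma), and Foxa2 was listed at 0 in all 22 libraries. In blastocysts, 9 markers were tested, of which 3 fell and 0 rose, where 19.8% of all tested genes fell and 16.7% rose (median log2 fold change -0.22, against 0.0047 over all tested genes). Sparc, a protein of the basement membrane, fell from 15.8 ± 3.98 to 3.45 ± 2.12 FPKM (SD, n = 4 each), a log2 fold change of -2.0 (adjusted p = 0.000215 from limma). Apoe, a lipid carrier, fell from 25.4 ± 6.58 to 9.07 ± 3.28 FPKM, and Lamb1, a laminin chain, from 2.14 ± 0.392 to 1.08 ± 0.171 FPKM (SD, n = 4 each). The KD libraries of all 3 genes lay below all control libraries. The summed level of the 21 markers, led by Dab2, overlapped, at 153 to 247 FPKM in control and 159 to 189 FPKM in KD blastocysts. Dab2 was already at 114 ± 12.3 FPKM in control and 111 ± 8.55 FPKM in KD morulae (SD, n = 4 and n = 3). The sum was at 119 to 162 FPKM in control morulae, so neither Dab2 nor the sum was particular to blastocysts. In morulae, 6 of the markers were tested and 0 were called by limma, where 4.23% of all tested genes were higher and 9.04% lower.

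Of 28 genes of the FGF and ERK pathway, which acts upstream of Gata6, 19 were tested in blastocysts, of which 3 rose and 2 fell, no larger a share than over all tested genes (median log2 fold change 0.28). With 1 library left out, 2 to 5 rose and 0 to 1 fell. Map2k2, a kinase that activates ERK, rose from 6.54 ± 2.59 to 19.4 ± 9.16 FPKM (SD, n = 4 each, adjusted p = 0.00242 from limma), and Dusp4 and Sos1 also rose. Nras and Dusp6 fell, with log2 fold changes of -0.56 and -0.61 (adjusted p = 0.0438 and 0.0399 from limma). Fgfr2, an FGF receptor of primitive endoderm cells, was at 5.73 ± 2.12 and 5.43 ± 2.38 FPKM (SD, n = 4 each) in control and KD blastocysts. Pdgfa, a ligand of Pdgfra, was the only 1 of 5 other PDGF genes that was tested, at 12.1 ± 1.30 FPKM in control and 14.7 ± 4.73 FPKM in KD blastocysts (SD, n = 4 each; adjusted p = 0.42 from limma). Pdgfc, below the filter, was at 0.0529 to 0.126 FPKM in control and 0 to 0.0098 FPKM in KD blastocysts, with no overlap. The ranges of the other PDGF genes overlapped. Of 7 relatives and partners of the GATA and SOX factors, 3 were tested: Gata1 rose from 2.01 ± 0.891 to 4.65 ± 1.19 FPKM, Gata2 was at 2.1 ± 1.13 and 0.121 ± 0.0617 FPKM, and Gata3 was at 34.9 ± 3.89 and 28.9 ± 7.90 FPKM (SD, n = 4 each) in control and KD blastocysts. Gata2 passed the filter through 3 control libraries only, which fixes the direction of its call, and without replicate 1, 4 or 5 of these it was not tested. In morulae, 2 of the relatives were tested, of which 0 rose and 1 fell, where 4.23% of all tested genes rose and 9.04% fell. Gata1 was at 29.5 ± 2.02 FPKM in control and 15.2 ± 5.21 FPKM in KD morulae, and Gata3 at 19.2 ± 3.12 and 11.5 ± 2.42 FPKM (SD, n = 4 and n = 3). Gata1 was above both Gata4 and Gata6 in mean FPKM in control 2-cell embryos (25.2 FPKM) and control morulae (29.5 FPKM), and Gata3 was above them in control blastocysts.

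Markers of other cells of the embryo were read in the same way, in blastocysts against 16.7% of all tested genes that rose and 19.8% that fell. Of 13 epiblast markers, 11 were tested in blastocysts, of which 1 rose (0 to 2 with 1 library left out) and 4 fell, and Bmp4 and Prdm14 among the latter passed the filter through control libraries only; their summed level was 404 to 560 FPKM in control and 357 to 509 FPKM in KD libraries, led by Nanog and Zfp42. Nanog itself was at 132 ± 42.8 and 161 ± 47.8 FPKM (SD, n = 4 each; adjusted p = 0.288 from limma) in control and KD blastocysts. In morulae, where KD and control libraries did not overlap for Gata4 and Pdgfra, Nanog fell from 106 ± 33.2 FPKM (SD, n = 4) to 20.7 ± 10.8 FPKM (SD, n = 3, adjusted p = 0.00647 from limma). At this stage, 1 of 8 tested epiblast markers rose and 2 fell, where 4.23% of all tested genes rose and 9.04% fell. The summed level of the epiblast markers was 348 to 437 FPKM in control and 218 to 314 FPKM in KD morulae. Of 10 trophectoderm markers, 9 were tested in blastocysts, of which 3 rose and 3 fell, with Hand1 passing the filter through KD and Elf5 through control libraries only. The summed level of the trophectoderm markers was 1606 to 2304 FPKM in control and 852 to 1095 FPKM in KD blastocysts, led by Krt18. Of 15 markers of granulosa cells, 9 were at 0 in all control blastocysts and 7 in all KD blastocysts, Fshr was at 0 in all 22 libraries, and Amhr2, the only one tested and not called (adjusted p = 0.701 from limma), made up most of the summed level, which was 4.20 to 6.73 FPKM in control and 4.30 to 6.86 FPKM in KD blastocysts. Of 9 oocyte markers, all reached 1 FPKM in every 2-cell library. In blastocysts, 2 were tested. Ooep fell from 36.5 to 2.30 FPKM, and was at 8.84 FPKM in control 2-cell embryos. Zp3 was at 1.48 FPKM in control and 2.26 FPKM in KD blastocysts and was not called (adjusted p = 0.512 from limma). Below the filter, Bmp15 and Nlrp5 were higher in KD blastocysts with no overlap, and the ranges of the other oocyte markers overlapped. The part of these shifts in the values of the 6 genes was not tested.

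**Figure D3:**
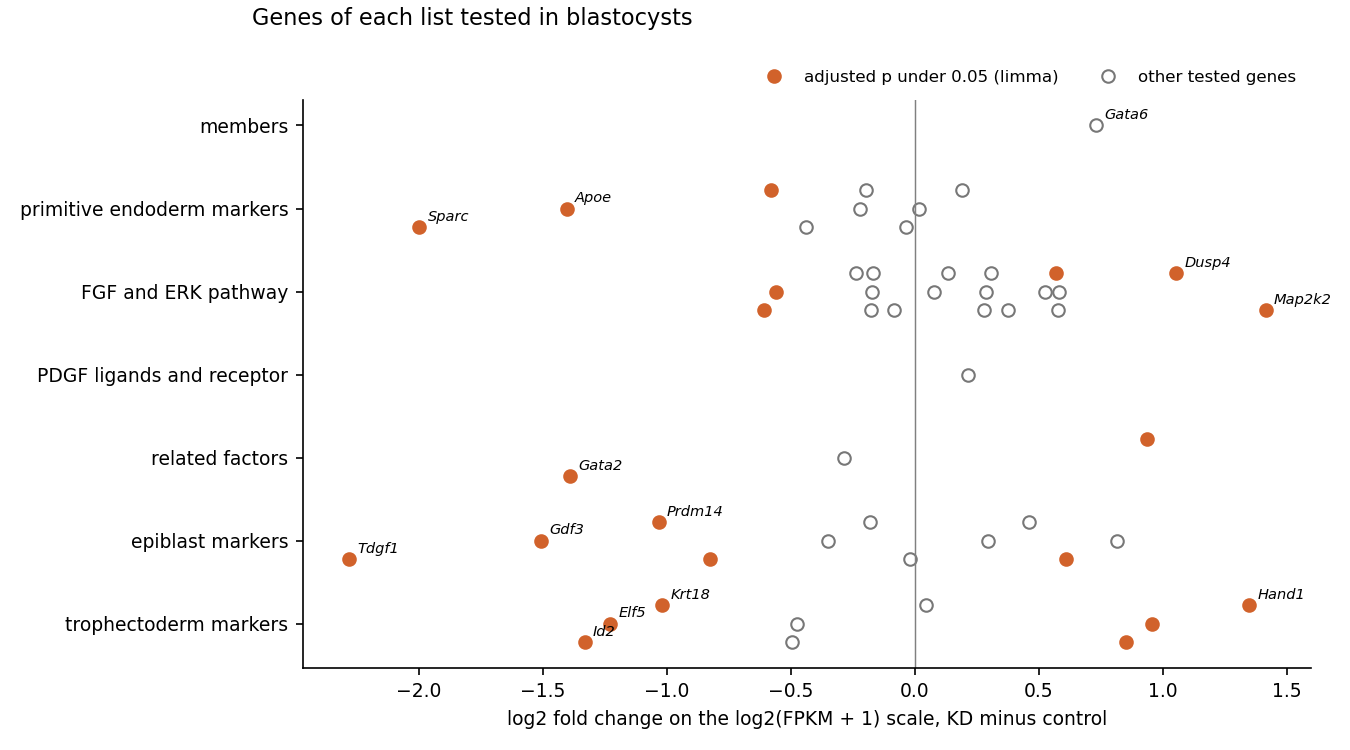
Log2 fold change between KD and control blastocysts (horizontal axis, log2(FPKM + 1) scale) of each tested gene of 7 gene lists (rows), with genes at an adjusted p under 0.05 filled in orange and other tested genes open. Gata6, the only tested gene of the 6 regulators, sits at 0.73 and is open, while Sparc and Apoe among the primitive endoderm markers lie at -2.0 and -1.40.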

How the data were processed

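FPKM were used as deposited by the authors, who list STAR and StringTie 2.1.4 on mm10 (GRCm38), with featureCounts 1.6.2 and DESeq2 1.30.1 for counts that were not used here. All 22 columns were matched to libraries by title, with 0 unmatched. FPKM were scaled between libraries by the median of ratios for all fits, while the levels printed are FPKM as deposited. For each comparison, log2(FPKM + 1) of genes with at least 1 FPKM in at least 3 libraries was fitted with limma 3.58.1 (lmFit, eBayes with trend) in R 4.3.3, and p-values were adjusted by Benjamini-Hochberg over all tested genes. Genes below this filter were given a two-sided exact permutation test of mean log2(FPKM + 1) over libraries, with no adjustment for the number of genes tested so. The smallest p was 0.0286 for 4 against 4 and for 4 against 3 libraries. The background for genes below the filter counts genes above 0 in at least 3 libraries of the comparison.

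All 6 genes were named. Of the other lists, named genes were called, defining or most abundant. The members and lists were chosen with earlier results of these data known. Of the 55335 genes, 54587 matched the annotation with their version and 55154 in any version, with all 6 genes among the former. A gene was said to pass the filter through 1 group only when no library of the other group reached 1 FPKM. Likeness was Pearson's r over the 22 libraries. The scripts were tested on simulated data. Tables, sequences and figures were made in Python 3.11.15 with numpy 2.4.6, pandas 2.3.3 and matplotlib 3.10.9.

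As alternatives, a pseudocount of 0.1, no filter, FPKM as deposited, FPKM rescaled to an equal sum in each library, an absolute log2 fold change above 1 as a further condition, each library left out in turn, and the replicate number as a block were fitted.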

Additional observations from a re-analysis of the deposited data

Results flagged for a closer look

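Within each group of libraries, a value was marked when it lay far from all others of its group. Such marks can arise by chance, and how often they do was not tested. Gata6 was marked in control morula replicate 1, at 27.8 FPKM with the nearest other library at 10.3 FPKM, and in control blastocyst replicate 6, at 19.4 FPKM with the nearest at 8.25 FPKM. Sox7 was marked in KD blastocyst replicate 5, at 0.357 FPKM with the nearest at 0.0284 FPKM. Control morula replicate 1 had 11174 genes at 1 FPKM or more, against 10406 to 10579 in the other control morulae. KD blastocyst replicate 5 had 11495 such genes, against 10792 to 11048 in the other KD blastocysts. Control blastocyst replicate 6 lay within its group, and the part of this in the marks was not tested.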

How the results depend on the processing

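When single libraries were left out, the log2 fold change of Gata4 between KD and control 2-cell embryos ran from -0.94 to 0.020 (-0.42 with all libraries), and that of Gata6 in morulae from -0.37 to 0.053 (-0.25 with all libraries). In blastocysts, Sox7 ran from -0.12 to 0.0087 (positive at 0.0021, 0.0081 and 0.0087), Spry2 from -0.41 to 0.022 (positive at 0.014 and 0.022), Sox17 from -0.44 to -0.15, Foxq1 from 0.040 to 0.11, and Gata6 from 0.44 to 1.02. Between KD morulae and KD blastocysts, Foxq1 ran from -0.031 to 0.086 (negative at -0.031, -0.0155, -0.0015 and -0.0211). The number of the 6 genes called higher in KD blastocysts ran from 0 to 1, and was 1 without control replicate 6, where 1644 of all 11618 tested genes were called higher.

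With no filter, limma called 2 of the 6 genes higher in control morulae than in control 2-cell embryos (1 with the filter), 3 higher in control blastocysts than in control morulae (0 with the filter) and 1 higher in KD blastocysts than in KD morulae (0 with the filter). Over all genes fitted with no filter, 7551 of 37322, 4077 of 34210 and 1746 of 33797 were called higher in these comparisons, in the same order. Without the filter, 129 genes were higher and 283 lower in KD morulae, against 465 and 993 with it. With FPKM as deposited, they were 281 and 1553, and with FPKM rescaled to an equal sum in each library 240 and 1787. With single libraries left out, 140 to 558 genes were higher and 411 to 1186 lower in KD morulae. The cause was not tested.

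With the replicate number as a block (replicate block), Gata6 was at 0.73 (adjusted p = 0.0674 from limma) in blastocysts and -0.63 (adjusted p = 0.0733 from limma) in morulae, and Gata4 at -0.74 in 2-cell embryos. In the paired fit, Gata4 and Pdgfra in morulae were at 0.17 and -0.048 (p = 0.5 each, exact sign flips, the smallest that 2 pairs allow), and no gene of the 6 was called. The deviations of libraries with the same number had r of 0.209, 0.0146 and 0.214 in 2-cell embryos, 0.181 and 0.0944 in morulae, and 0.0860, -0.111, 0.354 and 0.00149 in blastocysts. As not every r was above 0.1, the numbers were not taken to pair the samples. In morulae, libraries numbered 1 and 2 deviated together, as did control 7 and 8 with KD 6 (r of 0.185 and 0.347), and in 2-cell embryos control 1 and 2 with KD 1 (0.209 and 0.205) and control 4 and 5 with KD 4 (0.214 and 0.163). In blastocysts, control 1 had r of 0.401 with KD 4 and -0.381 with KD 5. The batch there set number 1 against the higher numbers and did not follow this pattern. The range of the replicate numbers as a batch, and all settings for the other lists, were added after the data had been seen; with this batch, Gata4 and Pdgfra in morulae kept their direction with p = 0.0556 each (exact permutation within ranges, the smallest p that these libraries allow; 0.0286 without the batch), Gata6 in blastocysts was at 0.73 (adjusted p = 0.125 from limma), and 777 genes were higher and 1261 lower in KD morulae.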
